A study of Rattus norvegicus with 10 samples.

Results

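The acrosome and sperm-egg interaction genes are 35 genes chosen by name: they encode proteins that build the acrosome, anchor it to the nucleus, fill it, or act when the sperm meets the egg. Of these, 33 had a row among the 32545 genes of the deposited tables, and Spaca6 and Spaca9 had none. Members were the rows that carry one of these names. The samples were round spermatids, the haploid cells that follow meiosis, of Brown Norway rats labelled wild type. The young group held 5 samples from rats of 4 to 6 months, the aged group 5 samples from rats of 18 to 20 months kept under the same ordinary housing, and the labels name no other treatment. Germ cells were separated with STA-PUT, in which cells settle through a gradient at a speed set mainly by their size, so a fraction is enriched rather than pure. The labels do not tie samples to single animals. The p-values here thus set the age difference against the spread between these samples, which may not be the spread between animals.

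The acrosome is a large secretory vesicle that round spermatids assemble from Golgi-derived vesicles and flatten over the nucleus. A cytoskeletal plate, the acroplaxome, and later the perinuclear theca hold it in place, and its matrix stores enzymes and binding proteins. After its contents are released near the egg coat, membrane proteins such as Izumo1, which binds the egg receptor Juno, take part in adhesion and fusion.

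Values are FPKM, fragment numbers divided by the length of the gene and by library size, so levels can be compared between genes. Recovered totals ran from 14488222 to 17401744 fragments in young and from 15992576 to 18203223 in aged samples. Spermatid markers summed to 25811 to 41317 FPKM in young and 25793 to 33092 in aged samples, and spermatocyte markers to 631 to 680.5 and 592 to 676. The aged mean was the higher one for 6 of 16 spermatid, 5 of 19 spermatocyte and 4 of 8 tested spermatogonium markers (of 12 with a row). An unadjusted p under 0.05 by limma was found for 4 of 19 spermatocyte markers, all lower in aged samples (21.1%, against 11.9% of all tested genes). It was found for 0 of 16 spermatid and 0 of 8 tested spermatogonium markers. Of the tested markers of other testis cells, 11 of 16 peritubular (68.8%) and 10 of 15 macrophage markers (66.7%, 2 of them lower) were at that p. So were 2 of 4 Leydig (50%) and 2 of 9 Sertoli cell markers (22.2%). Markers of other testis cells were also present and most of those tested were higher in aged samples: the aged mean was the higher one for 4 of 4 tested Leydig cell markers (of 9 with a row), 16 of 16 peritubular (of 19), 13 of 15 macrophage (of 18) and 8 of 9 Sertoli cell markers (of 17). A marker was tested when its mean over all 10 samples reached 1 FPKM, so some passed only through their aged values. Cnn1 was at 0.417 to 0.829 FPKM in young and 1.23 to 3.50 in aged samples, and Fcer1g at 0.180 to 0.760 and 0.389 to 7.15. The counts for these 4 lists are thus partly set by that filter, and the sums leave out the untested markers. The Leydig cell markers summed to 4.92 to 8.38 FPKM in young and 10.6 to 118 in aged samples, the peritubular markers to 77.5 to 125 and 130.3 to 446, the macrophage markers to 161 to 235 and 195 to 562, and the Sertoli cell markers to 98.9 to 109 and 103 to 222. In young samples the largest part of the macrophage sum was Aif1, at 128 to 169 FPKM in young and 134 to 157 in aged samples. The largest part of the young Sertoli cell sum was Tf, at 63.8 to 67.2 and 63.0 to 67.7. The young macrophage and Sertoli cell sums thus say little about the other markers of those lists. The sums of the Leydig and peritubular markers did not overlap between ages, and all 4 sums were highest in aged replicate 2, then in aged replicate 1. Insl3, the Leydig cell hormone, ran from 2.31 to 4.03 FPKM in young and from 5.81 to 86.4 in aged samples, and Vim, made by Sertoli and other somatic cells, from 5.20 to 8.90 and from 12.7 to 39.4. The Sertoli cell hormone Amh was at or below 0.214 FPKM in all libraries and at 0 in 1, too low to be tested. Young replicate 1 was the lowest library for many of the genes described here, so the counts of higher aged means are given with and without it. In bulk samples, fewer cells of a type and less RNA per cell cannot be told apart.

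The promoters of 32 of the 33 genes were found in RefSeq's table for GRCr8, as windows from 250 bases before to 50 after the start. They were searched on both strands for the cAMP response element (CRE, TGACGTCA), which the spermatid activator CREM binds, its half-site TGACG, the MYB element TAACNG and the TATA box TATAAA. The full element contains a half-site on each strand. It was found in 2 of 32 windows (6.25%), those of Izumo1 and Lyzl6, against 1.91% of all 27457 promoters of that length. The half-site was in 10 of 32 (31.3%, against 22.0%), the MYB element in 12 (37.5%, against 23.3%) and the TATA box in 3 (9.38%, against 14.3%). The 250 bases before the start are shown for the pair that holds a full element and for Acr and Fam170b, whose values by age are described further on; capitals mark a match to any of these motifs.
Izumo1: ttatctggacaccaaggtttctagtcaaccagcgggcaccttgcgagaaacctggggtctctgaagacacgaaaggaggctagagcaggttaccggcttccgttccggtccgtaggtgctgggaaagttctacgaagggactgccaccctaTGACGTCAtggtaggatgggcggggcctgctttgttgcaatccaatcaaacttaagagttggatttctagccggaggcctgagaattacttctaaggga
Lyzl6: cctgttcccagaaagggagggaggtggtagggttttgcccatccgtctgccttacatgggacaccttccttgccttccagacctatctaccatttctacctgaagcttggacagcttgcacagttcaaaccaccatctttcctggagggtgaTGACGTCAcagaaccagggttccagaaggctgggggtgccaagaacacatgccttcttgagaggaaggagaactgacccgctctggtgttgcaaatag
Acr: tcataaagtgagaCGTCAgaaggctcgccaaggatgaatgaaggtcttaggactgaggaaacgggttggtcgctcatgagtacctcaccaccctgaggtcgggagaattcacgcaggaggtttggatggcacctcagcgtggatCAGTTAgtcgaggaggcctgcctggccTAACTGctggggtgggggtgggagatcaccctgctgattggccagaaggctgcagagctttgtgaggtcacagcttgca
Fam170b: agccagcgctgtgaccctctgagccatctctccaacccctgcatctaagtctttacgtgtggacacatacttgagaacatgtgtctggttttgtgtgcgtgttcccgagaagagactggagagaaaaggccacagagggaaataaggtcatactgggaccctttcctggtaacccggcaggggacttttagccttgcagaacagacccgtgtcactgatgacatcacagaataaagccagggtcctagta
These lie at chr1:105227353-105227602 and chr10:89049211-89049460 (minus strand), chr7:122517684-122517933 and chr16:8107960-8108209 in GRCr8; the others are on the plus strand. In Izumo1 the full element begins at position -99 from the start and in Lyzl6 at -98. Acr has a half-site at -237 and MYB elements at -106 and -79, and the stretch shown for Fam170b holds no match. A match is a description of the letters only.

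Across ages, no gene of the group passed the test, and none of all 12985 tested genes did (0% called by limma at an adjusted p of 0.05; the smallest adjusted p was 0.280 over all genes and 0.319 among the 33). With voom, which weights the recovered fragments by how their spread changes with level, the count was also 0. At an unadjusted p under 0.05 the group held 4 of 33 genes (12.1%), against 11.9% of all tested genes. Of these, 3 were higher in aged samples (Fam170b, Acr and Izumo2), against 5.54% of all tested genes, and 1 was lower (Gopc), against 6.35%. Among all tested genes at that p, 46.6% were higher in aged samples; the share was 61.0% with TPM scaling and 62.8% with voom. No member had groups that did not overlap, against 2.6% of all tested genes.

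The measured differences were small. The 95% interval of the age difference lay within 0.5 on the log2(FPKM + 1) scale in both directions for 31 of 33 genes (93.9%), against 81.9% of all tested genes; the other two were Izumo2 and Spaca5. The aged mean was the higher one for 25 of 33 genes (75.8%), against 45.5% of all tested genes, and the median difference was 0.08, against -0.02. This count leans on 1 library: without young replicate 1 it was 21 of 33 and the median 0.04 (all tested genes, 43.8% and -0.02). In that fit 1 member (Fam170b, 3.03%) in place of 4 had an unadjusted p under 0.05. The share of all tested genes at that p also fell, from 11.9% to 8.89%. Without aged replicates 1 and 2, which held the most RNA of other testis cells, 27 of 33 aged means were higher with a median of 0.09 (all tested genes, 49.4% and -0.0020). The part of those cells in these counts was not tested.

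**Figure D1:**
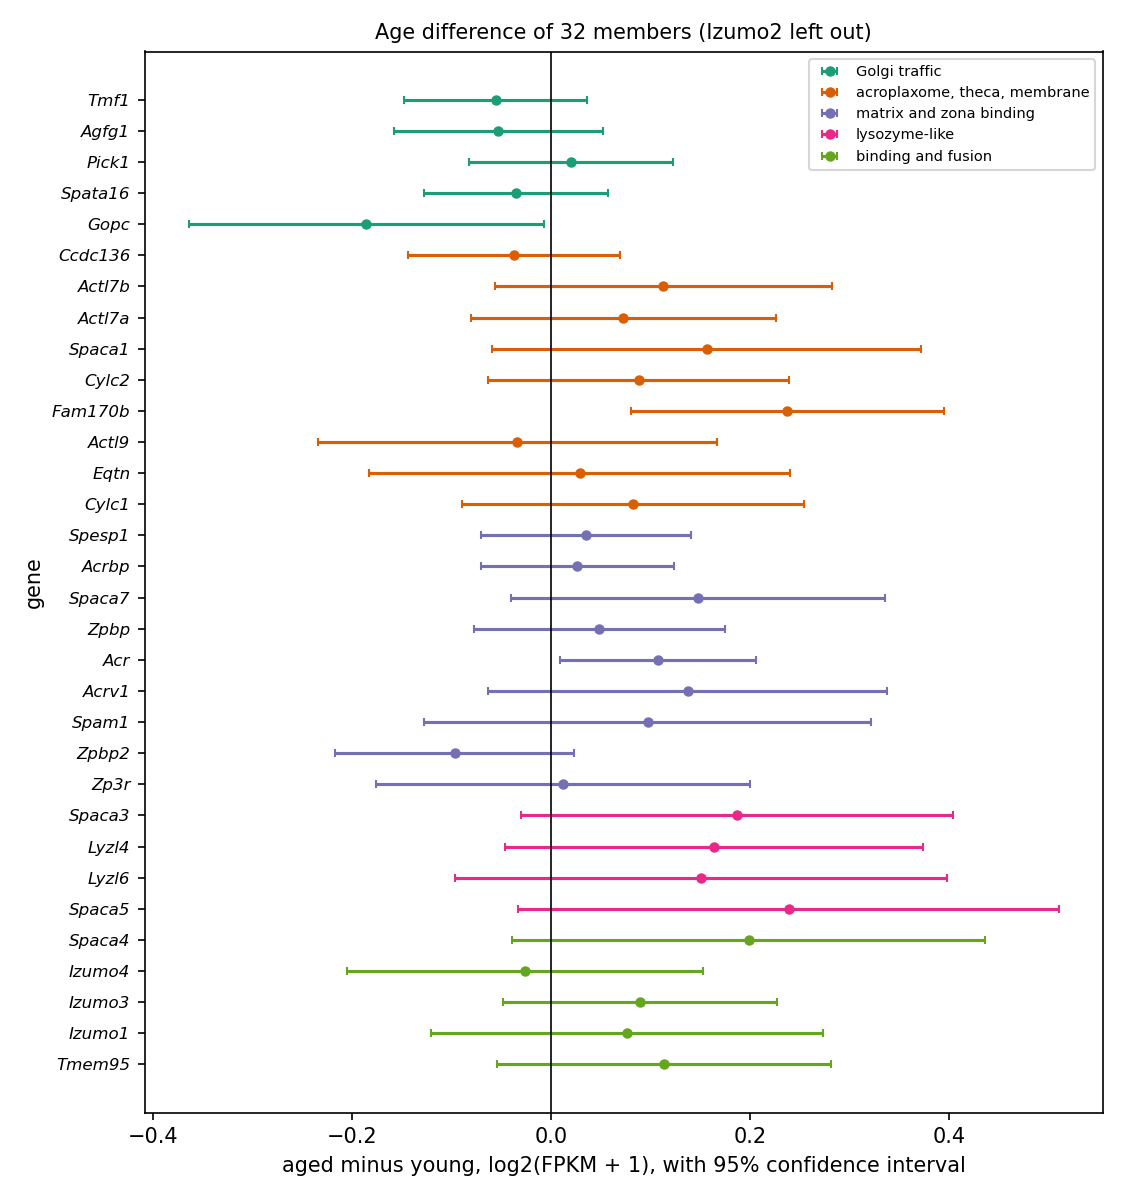
Age difference (aged minus young, log2 of FPKM + 1) of 32 genes with its 95% interval, by role; Izumo2 is left out because its interval, 0.20 to 3.93, would set the axis. All 32 points sit between -0.19 and 0.24, and the Golgi traffic genes are mainly at or below 0.

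The Golgi traffic genes carry vesicles from the Golgi to the growing acrosome. Their aged mean was higher in 1 of 5, with a median difference of -0.05 (1 of 5 and -0.04 without young replicate 1). Tmf1, a Golgi coiled-coil protein needed for acrosome formation, had the highest level of the 5: it measured 143, 133, 134, 143 and 141 FPKM in young replicates 1 to 5 and 132, 135, 139, 136 and 124 in aged replicates 1 to 5. The groups overlapped, with aged replicate 5 the lowest of all, and the difference was -0.06 (SE 0.04, 95% interval -0.15 to 0.04). Agfg1, which acts in the fusion of vesicles into the acrosome, measured 117, 114, 113, 117 and 109.9 FPKM in young replicates 1 to 5 and 109, 110.0, 121, 111 and 100.4 in aged replicates 1 to 5. Its highest and its lowest value were both aged (replicates 3 and 5). Spata16, a Golgi protein whose loss in humans gives round-headed sperm, measured 37.5, 37.9, 38.0, 38.4 and 35.0 FPKM in young replicates 1 to 5 and 35.9, 36.5, 37.4, 37.9 and 34.6 in aged replicates 1 to 5. In both groups replicate 5 was the lowest, and the age difference was -0.04. Pick1, a partner of Gopc in vesicle traffic, was at 76.8 ± 2.82 FPKM in young and 77.9 ± 4.41 in aged samples.

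Gopc, a Golgi protein with a PDZ domain required for the fusion of proacrosomal vesicles, had the lowest level of all 33 genes (ENSRNOG00000000408, chr20:33471351-33521311 on the minus strand, coordinates as deposited; no source used here names their build). It measured 5.64, 5.00, 5.26, 4.60 and 4.28 FPKM in young replicates 1 to 5 and 3.64, 4.56, 4.38, 4.21 and 4.36 in aged replicates 1 to 5. Aged replicate 1 was lowest and young replicate 1 highest, and 2 of 5 aged values lay below the young minimum. The means were 4.95 ± 0.536 FPKM in young and 4.23 ± 0.350 in aged samples, and the difference was -0.19 (SE 0.08, 95% interval -0.36 to -0.01) with unadjusted p = 0.0429, adjusted p = 0.412 by limma. The unadjusted p stayed under 0.05 in 6 of the 18 other settings in which Gopc was tested.

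The second group anchors the acrosome or lies in its membrane. Aged means were higher in 7 of 9 tested genes, with a median difference of 0.08 (6 of 9 and 0.06 without young replicate 1). Ccdc136, required for acrosome formation in mice, was the most abundant of all 33 genes and ranked 57th of all genes by mean FPKM. It measured 852, 749, 772, 795 and 822 FPKM in young replicates 1 to 5 and 813, 772, 799.7, 784 and 719 in aged replicates 1 to 5. Young replicate 1 was the highest library and aged replicate 5 the lowest, and the difference was -0.04. Actl7b and Actl7a, testis-specific relatives of actin, lie head to head on chromosome 5 with 1996 bases between them in the deposited coordinates. Actl7b measured 409.6, 497, 498, 464 and 493 FPKM in young replicates 1 to 5 and 459, 476, 516, 511 and 597 in aged replicates 1 to 5. Young replicate 1 was lowest, aged replicate 5 highest and the other 8 libraries lay between 459 and 516. Actl7a was at 262 ± 26.0 FPKM in young and 275 ± 18.8 in aged samples.

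Spaca1, a protein of the inner acrosomal membrane, measured 174, 231, 226, 211 and 245 FPKM in young replicates 1 to 5 and 231, 233, 235, 218 and 292 in aged replicates 1 to 5. Again young replicate 1 was lowest and aged replicate 5 highest, and the difference was 0.16 (SE 0.10, 95% interval -0.06 to 0.37). The cylicins Cylc2 and Cylc1 are basic proteins of the perinuclear theca. Cylc2 was at 176 ± 10.4 FPKM in young and 188 ± 18.0 in aged samples, and Cylc1, on the X chromosome, at 31.8 ± 1.83 FPKM in young and 33.9 ± 4.09 in aged samples. Actl9, another actin relative, was at 167 ± 20.7 FPKM in young and 163 ± 16.8 in aged samples, and Eqtn, an acrosomal membrane protein that takes part in fusion with the egg, at 72.5 ± 10.3 FPKM in young and 73.5 ± 5.31 in aged samples. For these 4 genes the groups overlapped and the differences ran from -0.03 to 0.09.

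Fam170b, an acrosomal protein, had the smallest p of the 33 genes (ENSRNOG00000020077, chr16:9074033-9076865 on the plus strand, coordinates as deposited). It measured 139, 169.9, 174, 158 and 183 FPKM in young replicates 1 to 5 and 202, 183, 204, 181 and 201 in aged replicates 1 to 5. Of 5 aged values, 4 lay above the highest young value, replicate 2 only just, and aged replicate 4 fell just below it. The means were 165 ± 16.8 FPKM in young and 194 ± 11.3 in aged samples, a difference of 0.24 (SE 0.07, 95% interval 0.08 to 0.40) with unadjusted p = 0.00669, adjusted p = 0.319 by limma. The unadjusted p ran from 0.00168 to 0.0199 over 19 alternative settings, in which the adjusted p ran from 0.179 to 0.622 and the difference from 0.18 to 0.28. Aged replicates 1 and 2, with the most RNA of other testis cells, were at 202 and 183 FPKM, within the range of the other aged samples. The part of other testis cells in the Fam170b difference was not tested.

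**Figure D2:**
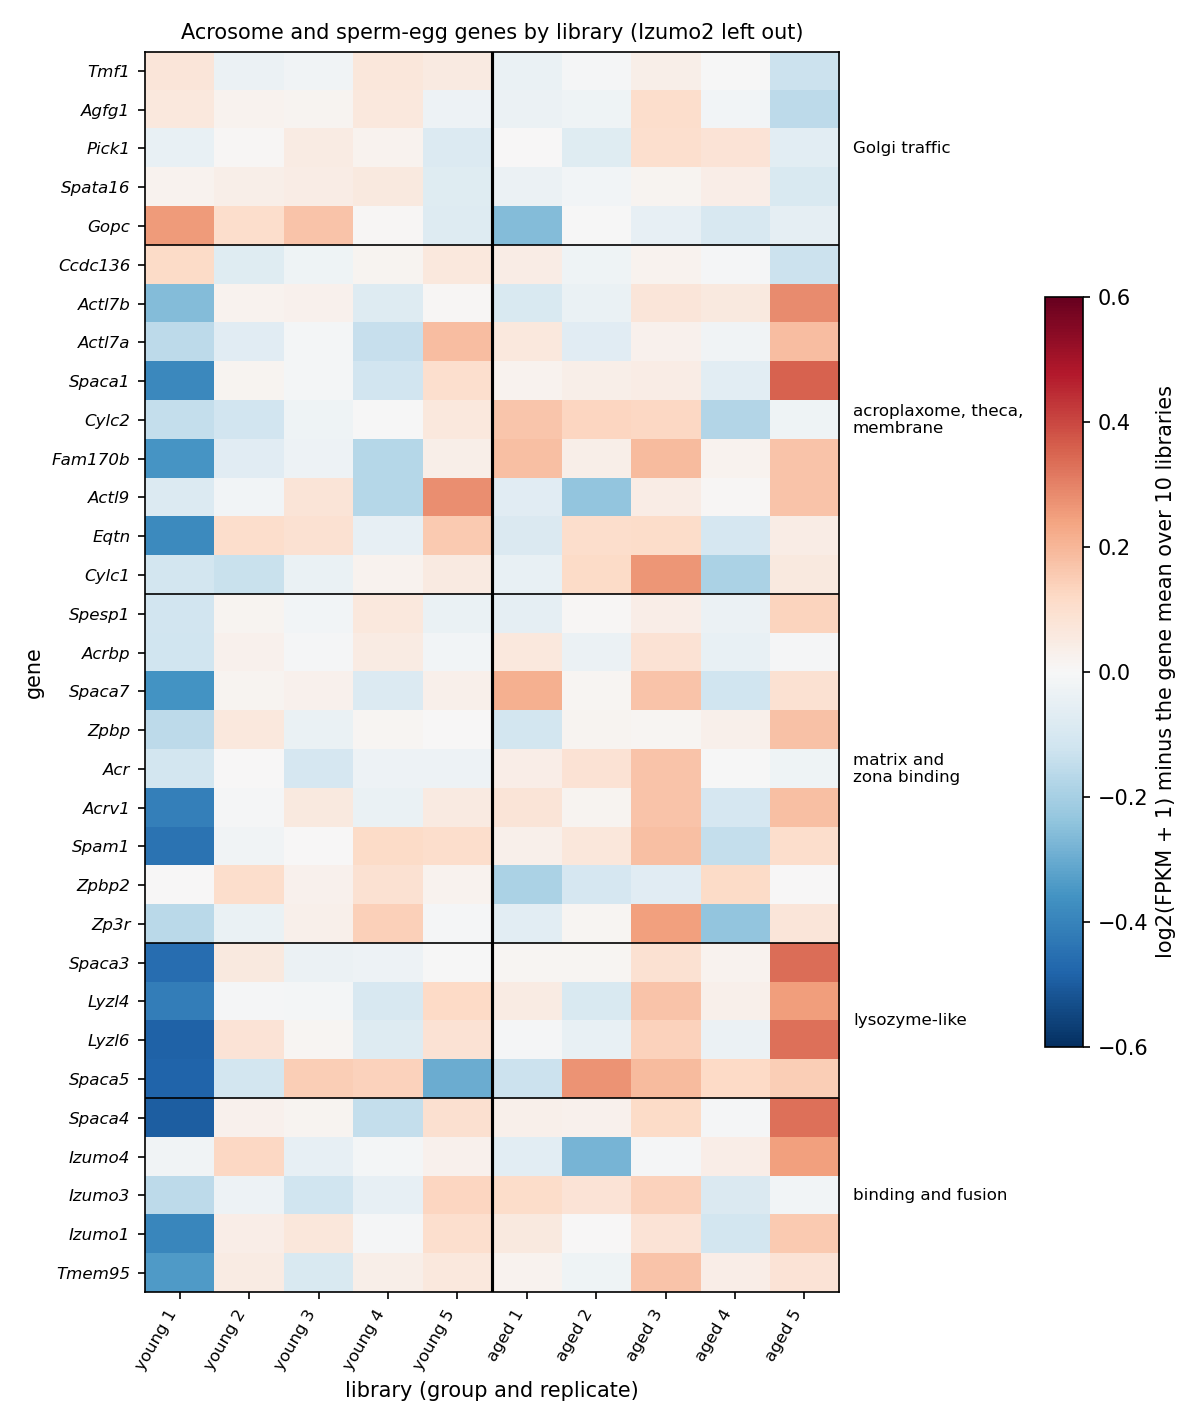
Deviation of each gene from its own mean over the 10 libraries (log2 of FPKM + 1, colour), one row per gene ordered by role and one column per library; Izumo2 is left out. The column of young replicate 1 is low for most rows below the Golgi traffic genes, and aged replicates 3 and 5 are high for many.

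The third group fills the acrosomal matrix or binds the egg coat, the zona pellucida. The aged mean was the higher one for 8 of 9, with a median of 0.05, but for 6 of 9 with a median of 0.01 without young replicate 1. Spesp1, a protein of the equatorial segment, had the highest level among them and ranked 70th of all genes. It measured 632, 693, 676, 716 and 666 FPKM in young replicates 1 to 5 and 659, 688, 703, 667 and 750.2 in aged replicates 1 to 5. Acrbp, which binds proacrosin and helps package it, measured 419, 463, 453, 471 and 449 FPKM in young replicates 1 to 5 and 475, 444, 484, 441 and 453 in aged replicates 1 to 5. In both genes young replicate 1 lay below every aged value and the other young values lay among the aged ones. The differences were 0.04 and 0.03.

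Acr encodes acrosin, the main serine protease of the acrosome (ENSRNOG00000029762, chr7:130542202-130548356 on the plus strand, coordinates as deposited). It measured 222, 239, 223, 234 and 234 FPKM in young replicates 1 to 5 and 246, 254, 269, 239 and 235 in aged replicates 1 to 5. Of 5 aged values, 3 lay above the young maximum, and aged replicates 4 and 5 were within the young range. The means were 230.3 ± 7.84 FPKM in young and 248 ± 13.6 in aged samples, a difference of 0.11 (SE 0.04, 95% interval 0.01 to 0.21) with unadjusted p = 0.0352, adjusted p = 0.396 by limma. The unadjusted p stayed under 0.05 in 12 of 19 alternative settings.

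Acrv1, the matrix protein SP-10 and a classical marker of round spermatids, measured 160.1, 213, 222, 208 and 221 FPKM in young replicates 1 to 5 and 225, 216, 240.1, 199 and 242 in aged replicates 1 to 5. Spam1, the membrane hyaluronidase PH-20 that helps sperm pass the cumulus cells, measured 149.7, 201, 204, 221 and 219.7 FPKM in young replicates 1 to 5 and 208, 214, 231, 185 and 219 in aged replicates 1 to 5. In each gene young replicate 1 was far below the other 9 libraries, and without it the Spam1 difference moved from 0.10 to -0.0015. Of the zona-binding proteins, the aged mean was the higher one for Zpbp and the lower one for Zpbp2; neither had an unadjusted p under 0.05. Zpbp was at 265 ± 15.0 FPKM in young and 274 ± 19.6 in aged samples, and Zpbp2 at 118 ± 3.74 FPKM in young and 110.1 ± 8.87 in aged samples, with 4 of 5 aged values below the young minimum, 1 above the young maximum and an unadjusted p of 0.105 by limma. Spaca7, a matrix protein released on exocytosis, was at 339 ± 36.6 FPKM in young and 376 ± 34.0 in aged samples. Zp3r, a matrix protein that binds the zona, was at 44.0 ± 3.47 FPKM in young and 44.6 ± 5.61 in aged samples.

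All 4 lysozyme-like genes had the higher mean in aged samples, with a median difference of 0.18; none had an unadjusted p under 0.05. Their proteins share the fold of lysozyme and sit in the acrosome. Spaca3, on the acrosomal membrane, measured 173, 248, 232, 233 and 237 FPKM in young replicates 1 to 5 and 239, 239.8, 253, 241 and 299.8 in aged replicates 1 to 5. Lyzl4 measured 105, 139.6, 139, 131 and 152 FPKM in young replicates 1 to 5 and 145, 132, 158, 143 and 167 in aged replicates 1 to 5. For both, young replicate 1 was the lowest and aged replicate 5 the highest library. The Spaca3 difference was 0.19 (SE 0.10, 95% interval -0.03 to 0.40) and the Lyzl4 difference 0.16 (SE 0.10, 95% interval -0.05 to 0.37). Lyzl6 was at 93.9 ± 14.3 FPKM in young and 104 ± 12.1 in aged samples, and Spaca5, on the X chromosome, at 18.8 ± 3.67 FPKM in young and 22.2 ± 2.31 in aged samples. Without young replicate 1 all 4 aged means were still higher, with a median of 0.09 in place of 0.18.

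Among the genes of sperm-egg binding and fusion, aged means were higher in 5 of 6, with a median of 0.10, but in 4 of 6 with a median of 0.05 without young replicate 1. Spaca4, a small membrane-anchored protein that helps sperm bind and pass the zona, measured 183, 264, 262, 234 and 277 FPKM in young replicates 1 to 5 and 265, 263, 280.3, 258 and 326 in aged replicates 1 to 5. Young replicate 1 was lowest and aged replicate 5 highest, and the difference was 0.20 (SE 0.11, 95% interval -0.04 to 0.44). Spaca4 overlaps Fam83e on the opposite strand, which had a mean of 12.1 FPKM; no source used here gives the strand setting of the counting, so a small share of fragments could be assigned to either gene. In all, 5 of 33 genes overlap another one in the deposited coordinates (also Ccdc136, Tmf1, Spata16 and Gopc); the partners of those 4 had means of at most 0.237 FPKM. Tmem95, a membrane protein required for fusion, was at 68.2 ± 7.72 FPKM in young and 73.5 ± 3.86 in aged samples.

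The Izumo proteins share a domain named after Izumo1, the sperm ligand of the egg receptor Juno. Izumo1 (ENSRNOG00000024678, chr1:101603222-101608976 on the plus strand, coordinates as deposited) measured 79.6, 108, 109.8, 104 and 112 FPKM in young replicates 1 to 5 and 109, 105, 111, 97.0 and 117 in aged replicates 1 to 5. Young replicate 1 was the lowest library and the other 9 lay between 97.0 and 117 FPKM. The difference was 0.08 (SE 0.09, 95% interval -0.12 to 0.27), and -0.01 without young replicate 1. Izumo4, the family member predicted to be secreted, measured 201, 222, 197, 202 and 208 FPKM in young replicates 1 to 5 and 196, 168, 203, 209.6 and 243 in aged replicates 1 to 5. Its aged samples held both the lowest and the highest value, and the difference was -0.03. Izumo3, which takes part in acrosome formation, was at 109.8 ± 8.80 FPKM in young and 117 ± 7.66 in aged samples. By mean over all libraries, Izumo4 was the most abundant of the family, followed by Izumo3, Izumo1 and Izumo2; the ranges of Izumo3 and Izumo1 overlapped.

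Izumo2 varied far more between libraries than the other 32 genes (ENSRNOG00000045902, chr1:99447561-99460119 on the plus strand, coordinates as deposited, 663 bases of counted length). It measured 0.625, 6.86, 30.4, 39.6 and 8.11 FPKM in young replicates 1 to 5 and 95.5, 69.4, 10.002, 35.6 and 68.1 in aged replicates 1 to 5. These are 7, 80, 294, 420 and 83 fragments in young and 1175, 754, 115, 396 and 735 in aged libraries, so the spread is far beyond counting error. The highest library was 153 times the lowest, whereas the other 32 genes ran from 1.11 to 1.78 times. Among the 2719 tested genes with a mean within 2-fold of that of Izumo2, the median ratio was 1.29 and 0 had a larger one. Both groups held high and low libraries: 3 of 5 aged values lay above the young maximum, and aged replicate 3 was lower than young replicates 3 and 4. The means were 17.1 ± 16.9 FPKM in young and 55.7 ± 33.2 in aged samples, a difference of 2.06 (SE 0.85, 95% interval 0.20 to 3.93) with unadjusted p = 0.0330, adjusted p = 0.392 by limma. The unadjusted p stayed under 0.05 in 11 of 19 alternative settings. A second gene named as Izumo2-like, LOC100911976, is listed on the same chromosome at chr1:100708693-100721251 with the same counted length and the same span of 12559 bases. It was at 0 in 8 libraries, with 1 fragment in aged replicate 2 and 2 in aged replicate 5. The sequences of these genes were not compared. Near-identical copies can share reads, so if they are such copies the Izumo2 level is uncertain. Whether this bears on the spread was not tested.

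**Figure D3:**
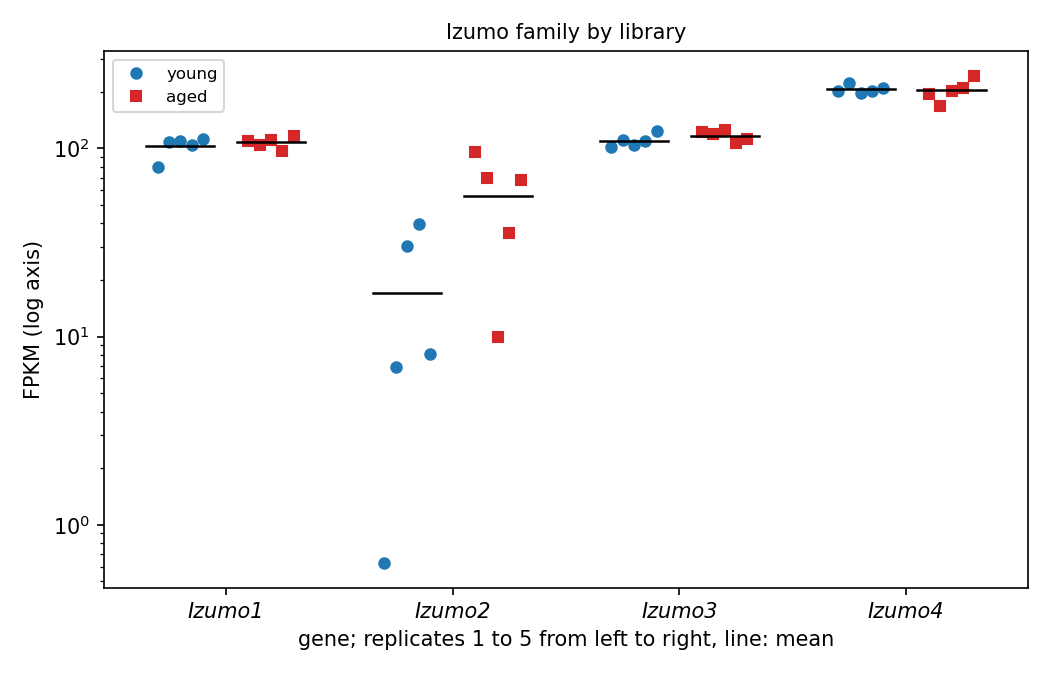
FPKM (log axis) of the 4 Izumo genes in each of the 10 libraries, replicates 1 to 5 from left to right in each group, with the group mean as a line. Izumo1, Izumo3 and Izumo4 form narrow bands, while Izumo2 runs from 0.625 to 95.5 FPKM with the groups overlapping.

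A feature shared by many of the genes was their level in young replicate 1. It was the lowest of all 10 libraries for 21 of 33 genes (63.6%), against 17.9% of all tested genes. Every lysozyme-like gene (4 of 4) and most of the matrix (7 of 9), fusion (5 of 6) and membrane genes (5 of 9) were lowest there, but 0 of 5 Golgi traffic genes. Relative to the mean of the other 4 young libraries, the lysozyme-like genes were at 0.698 to 0.747 in young replicate 1 and the Golgi traffic genes at 0.971 to 1.18; the median over all tested genes was 0.996. Aged replicate 5 was the highest library for 11 of 33 genes (33.3%, against 13.1% of all tested genes) and aged replicate 3 for 10 (30.3%, against 10.1%). Together the 33 genes made up 1.07% of the summed FPKM in young replicate 1, the lowest share, and 1.31% in aged replicate 5, the highest.

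Gene length moved with this pattern. Across 32 genes without Izumo2, the ratio of young replicate 1 to the other young libraries had a Spearman rho of 0.62 with gene length, against 0.20 over all tested genes. Genes are not independent replicates and all points share the same libraries, so this is a description. The 7 of these genes shorter than 800 bases had a median deviation of -0.41 in young replicate 1 and the 3 of at least 3000 bases 0.11; for all tested genes these were -0.07 and 0.05. The age difference was likewise related to length, with a rho of -0.64 over the 32 genes and -0.48 without young replicate 1 (-0.12 and -0.07 over all tested genes). In young replicate 1 the spermatocyte markers were at their highest, with a median deviation of 0.27, and the spermatid markers stood at 0.09. The part of length or of cell mix in the low values of that library was not tested.

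**Figure D4:**
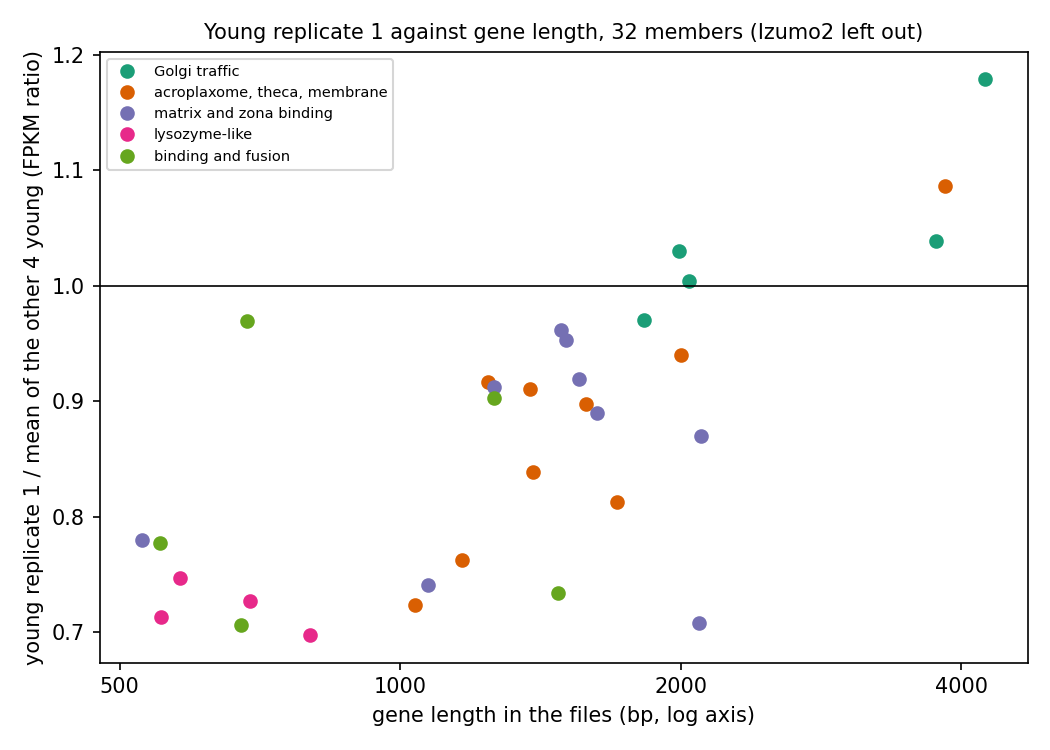
Ratio of young replicate 1 to the mean of the other 4 young libraries against gene length (log axis), 1 point per gene for 32 genes, coloured by role; Izumo2 is left out. The 7 genes shorter than 800 bases run from 0.707 to 0.970 and the 3 of at least 3000 bases from 1.04 to 1.18, while Spam1, at 2090 bases, is at 0.708.

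Other genes of the same processes came from 2 lists. Of the genes of acrosome formation and exocytosis, 43 of the 50 with a row were tested; 14 had the higher mean in aged samples, the median difference was -0.05, and 5 (11.6%, against 11.9% of all tested genes) had an unadjusted p under 0.05 (1 higher, 4 lower). None passed the adjusted threshold by limma. Crisp2, a cysteine-rich protein of the acrosome and tail, was the most abundant, at 2209 ± 147 FPKM in young and 2035 ± 59.9 in aged samples. Crisp2 was one of the 4 lower genes (difference -0.12, unadjusted p = 0.0462, adjusted p = 0.418). Another was Hook1, a protein of the manchette that shapes the nucleus, at 92.5 ± 1.34 FPKM in young and 85.3 ± 5.04 in aged samples (unadjusted p = 0.0202, adjusted p = 0.367). Napa, the alpha-SNAP of membrane fusion, was at 57.3 ± 1.40 FPKM in young and 53.5 ± 2.94 in aged samples (unadjusted p = 0.0479, adjusted p = 0.419). Golga1, a golgin, was at 3.82 ± 0.369 FPKM in young and 3.22 ± 0.319 in aged samples (unadjusted p = 0.0356, adjusted p = 0.396).

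Mfge8, a secreted adhesion protein that is also made outside the germ line, was the higher one. It measured 2.62, 2.90, 2.81, 3.62 and 4.07 FPKM in young replicates 1 to 5 and 5.59, 15.0, 4.15, 5.69 and 5.06 in aged replicates 1 to 5. The groups did not overlap, and aged replicate 2 stood far above the rest. The difference was 0.83 (SE 0.26, 95% interval 0.25 to 1.40) with unadjusted p = 0.00874, adjusted p = 0.323 by limma, and 0.55 without aged replicate 2. That library also had the highest sums of the 4 tested Leydig, 9 Sertoli, 16 peritubular and 15 macrophage markers; their part in the difference was not tested.

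Of the genes of gamete recognition and fusion, 24 of the 27 with a row were tested, 11 had the higher mean in aged samples, the median difference was 0.00, and 2 (8.33%, against 11.9%) had an unadjusted p under 0.05. Cmtm2a and Cmtm2b, small membrane proteins of the germ line, were the most abundant, at 1918 ± 66.5 FPKM in young and 1849 ± 145 in aged samples and at 1229 ± 30.1 FPKM in young and 1224 ± 47.6 in aged samples. Pkdrej, a relative of polycystin in the sperm head, was the lower of the pair, at 40.2 ± 3.17 FPKM in young and 36.0 ± 1.40 in aged samples (difference -0.15, unadjusted p = 0.0239, adjusted p = 0.379 by limma). Cd9, a tetraspanin known for its role on the egg surface and widely made in somatic cells, was at 2.23 ± 0.783 FPKM in young and 3.73 ± 1.92 in aged samples (unadjusted p = 0.0481, adjusted p = 0.419). Its highest value, 7.14 FPKM, was again in aged replicate 2, and without that library the unadjusted p was 0.0831.

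As a measure of spread between samples, the SD of log2(FPKM + 1) was larger in the aged group for 12 of 33 genes (36.4%), against 51.6% of all tested genes. Without young replicate 1 this turned around, to 26 of 33 genes (78.8%), against 60.5% of all tested genes.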

How the data were processed

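RNA-seq of 5 young and 5 aged samples of round spermatids was used, grouped by the labels. The deposited values are FPKM per gene, made by the authors, 1 table per sample with 32545 genes. Alignment with HISAT2 (2.0.5) and counting with featureCounts (1.5.0-p3) are listed by the submitters' processing notes. Genome build, strand setting and scaling: not given in the sources used here. Whole fragments were recovered from FPKM and gene length (100% whole within 0.001 in each sample), at 14488222 to 18203223 per sample.

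Age was tested with limma 3.58.1 in R 4.3.3 (lmFit and trended eBayes). Values entered as log2(FPKM + 1), and 12985 genes whose mean reached 1 FPKM were tested, two-sided, with Benjamini-Hochberg adjustment over all of them and a threshold of 0.05. Differences are aged minus young on that scale, which understates changes of low genes; ± is the SD of 5 samples. The fit was tested on simulated data. Values per sample are given for the 2 most abundant genes of each role, those with an unadjusted p under 0.05 and those with an outlying sample by Dixon's criterion (0.71 for 5 samples). Of the 2 other lists, the rule names the 2 most abundant of each and those with an unadjusted p under 0.05. Among these, Mfge8 is given per sample and the others reported here by mean and SD. The members, lists and this rule were chosen with earlier results of these data known. A result of this rule is not reported here. Promoters are RefSeq's, on GRCr8; no other sequence was used. Alternatives were another pseudocount, filters on low values, TPM, median-of-ratios and quantile scaling, voom, a replicate block, leaving out each sample, and leaving out aged replicates 1 and 2 together.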

Additional observations from a re-analysis of the deposited data

Results flagged for a closer look

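Within a group of 5, 1 sample stood apart from the others by Dixon's criterion in 11 of the 86 groups of values examined, where chance flags about 1 in 20. Of these, 7 were among the 66 groups of acrosome and sperm-egg genes (10.6%, against 7.17% of the groups of all tested genes). The groups share the same 10 libraries, and the other 20 groups belong to genes named for their level or p. In young replicate 1 the low samples were Acrv1 at 160.1 FPKM, Spam1 at 149.7, Spaca3 at 173 and Izumo1 at 79.6. Spaca1 at 292 FPKM and Spaca3 at 299.8 were high in aged replicate 5, and Spata16 at 35.0 was low in young replicate 5. Of the other genes, Mfge8 at 15.0 FPKM and Cd9 at 7.14 were high in aged replicate 2, Cd9 at 3.61 was high in young replicate 5 and Pkdrej at 33.5 was low in aged replicate 5.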

How the results depend on the processing

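For the genes of the group whose values are given per sample, 355 values under alternative settings kept their direction and their side of the threshold. Another 5 changed direction: Izumo4 without aged replicates 1 and 2 (0.079), and leave-one-out values of Izumo4 (-0.091 to 0.041), Izumo1 (-0.012 to 0.11) and Spam1 (-0.0015 to 0.15). Members given only by mean and SD were not in this count, and some of these also turned. Without young replicate 1, Eqtn was at a mean of 76.8 FPKM in young and 73.5 in aged samples, and Zp3r at 45.2 and 44.6. Without aged replicate 3, the aged mean was higher in 0 of 5 Golgi traffic genes. The number of tested genes at an unadjusted p under 0.05, 1544, became 887 with a filter of at least 5 FPKM, 2379 with no filter (fewer and more genes tested) and 972 without aged replicates 1 and 2, and ran from 1155 to 2183 when single samples were left out. The number past the adjusted threshold was 0 to 1 when single samples were left out, with 1 without young replicate 1 and 1 without young replicate 2. Among the 33 genes, the number higher at an unadjusted p under 0.05 was 5 with voom and 5 with the replicate block, and 1 to 6 when single samples were left out. Of all tested genes, 11.8% were at that p with voom (62.8% of them higher) and 9.67% with the replicate block (49.3% of them higher). When single samples were left out, that share ran from 8.89% without young replicate 1 to 16.8% without young replicate 5, where the member count was 6. The number lower was 0 with TPM or median-of-ratios scaling, the 5 FPKM filter (which drops Gopc), voom, the replicate block and without aged replicates 1 and 2, and 0 to 1 when single samples were left out; the cause was not tested. Of all tested genes, 10.7% were at that p in either direction with TPM and 12.0% with median-of-ratios scaling. It was 11.3% with the 5 FPKM filter and 7.49% without aged replicates 1 and 2. The number of higher aged means was 21 to 27 and their median difference 0.04 to 0.11 over all alternatives. The number whose SD was larger in aged than in young samples, 12, became 26 without young replicate 1, an alternative added after seeing the data. No pairing by the shared replicate numbers was visible: deviations of same-numbered samples correlated at -0.16 to 0.05, and 1 of 10 samples correlated best with its own number. Such correlations cannot show whether same-numbered samples were handled together. With the replicate block, 1255 tested genes had an unadjusted p under 0.05. The planned quasi-likelihood count test was not run, because the deposited unit is FPKM. Low FPKM limits Gopc, and few fragments limit Izumo2 in young replicate 1.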

Other observations

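Spink2, an inhibitor of acrosin that protects the cell during acrosome formation, was chosen after its values were seen. It measured 16.0, 18.4, 20.1, 17.7 and 737 FPKM in young replicates 1 to 5 and 15.0, 22.7, 19.2, 17.5 and 28.8 in aged replicates 1 to 5. Young replicate 5 was at 737 FPKM and the other 9 libraries lay between 15.0 and 28.8. The age difference by limma was -0.90 (SE 0.91) with all libraries and 0.16 (SE 0.16) without young replicate 5. Acr, whose protein it inhibits, was at 234 FPKM in that library, within the range of the other young samples.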
